A study of Rattus norvegicus with 10 samples.

Results

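The complement system was followed through 9 genes: the 3 chains of C1q (C1qa, C1qb and C1qc), the protease C1s, the central component C3, the receptors C3ar1 and Itgam, and the inhibitors Serping1 and Cd55. They were chosen by gene symbol, with earlier results of these data known. The choice was made among 16604 symbols that could be assigned to the 32041 RNA records of the count table. For a symbol with several records, the one with the highest mean count over all 10 rats was to be selected; each of the 9 genes had 1 record, so no measured value decided which record was used. All 9 passed the filter on low counts. The messenger RNA came from the left hippocampus of adult male Sprague-Dawley rats, from tissue containing CA3 and dentate gyrus and labelled dorsal hippocampus, 3 months after surgery. In 5 rats a traumatic brain injury (TBI) was caused by lateral fluid percussion, a pressure pulse of on average 3.32 atm delivered to the intact dura. The 5 sham-operated rats had the same anaesthesia (pentobarbital with chloral hydrate) and the same left parietal craniectomy of 5 mm without the pulse. Both groups thus had the opening of the skull, and the operations differed in the impact. The labels and the count table give 5 sham rats, while the methods of the study name fewer controls for this profiling, so which of these rats the study itself used was not settled. The injured rats were not monitored by EEG and had no seizures on handling, which limits them as a model of epilepsy.

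Complement is a cascade of plasma and tissue proteins. C1q recognizes a target and switches on the proteases C1r and C1s, these cut C4 and C2, and the resulting convertase cuts C3. Fragments of C3 label the target for cells that carry the receptor CR3, a pair of Itgam and Itgb2, and the small fragment C3a signals through C3ar1. Serping1 (C1 inhibitor) blocks C1r and C1s, and Cd55 (decay accelerating factor) takes the convertases apart. In the brain, C1q is made mainly by microglia, C3 and Serping1 are known from reactive astrocytes and other glia, and C1q and C3 label synapses for removal by microglia during development.

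The libraries held between 23425817 and 31671838 counts on RNA records. Ribosomal RNA made up 59.0% of these counts in sham replicate 4 and 58.5% in sham replicate 5, against 12.5% to 26.2% in the other 8 libraries, and it differed between groups (38.7% ± 18.3 in sham and 19.7% ± 5.23 in TBI rats, SD, n = 5 each; two-sided exact permutation p = 0.0238). The libraries of sham replicate 3 and TBI replicate 3 also stood apart from their groups. They were closer to the opposite group in summed astrocyte markers and several complement genes. Whether their labels are exchanged cannot be checked from the counts, and the labels were kept. Expression is given as CPM, counts scaled to the library size after TMM normalization. The summed astrocyte markers reached 2301 CPM in sham replicate 3 and 1438 to 1546 CPM in the other sham rats, and 1607 CPM in TBI replicate 3 and 2361 to 3194 CPM in the other TBI rats. Gfap was the largest part of this sum in every rat. Of the labelled regions, the CA3 markers Grik4, Cpne4 and Bok and the dentate markers Prox1 and C1ql2 were present in every library. The CA3 marker Iyd was below the filter, with at most 5 counts in any rat. Of the other dentate markers, Lct had 1 to 12 counts per rat and Dsp had no record. Sham replicate 1 had the lowest dentate sum at 43.2 CPM.

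Differences are given as log2 of TBI over sham from edgeR's quasi-likelihood test, fitted on all 22431 tested records. CPM values are not corrected for transcript length and were compared between rats, not as levels between genes. Of all records, 7.89% had an unadjusted p under 0.05, 4.89% with higher and 3% with lower expression in TBI. After Benjamini-Hochberg adjustment over all records, the quasi-likelihood test of edgeR left 0 records under 0.05 (0%), its exact test also 0, and DESeq2 3. Against this background, 4 of the 9 complement genes (44.4%) had an unadjusted p under 0.05, all higher in TBI: C1qa, C1qb, C1s and Serping1. Because the genes were chosen with earlier results of these data known, this share is a description and not a test. Of the 9 genes, 6 had a positive and 3 a negative log2 difference, with a median of 0.31, compared with -0.01 over all records. No complement gene passed the adjustment, and the smallest Benjamini-Hochberg adjusted value of the 9 was that of Serping1, at 0.548 with edgeR. For each of the 9 genes the sham and TBI rats overlapped. Overlap was the rule over all records, where all TBI rats lay above or below all sham rats in only 0.923%. In bulk tissue, fewer or more cells of a type and less or more RNA per cell cannot be told apart.

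**Figure D1:**
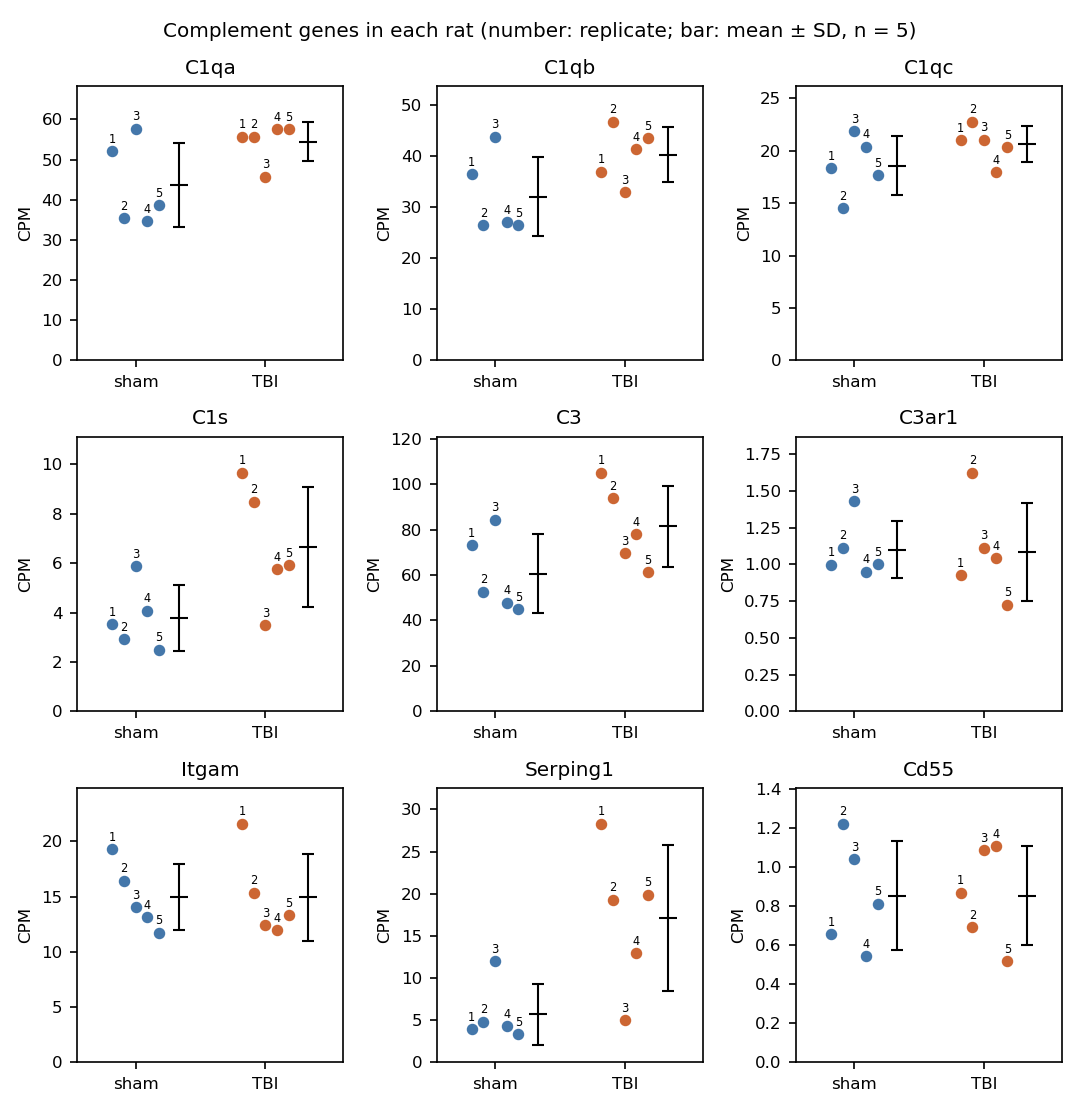
Expression in CPM (vertical axes, from 0) of the 9 complement genes in the 5 sham (blue) and 5 TBI rats (orange), with each rat's replicate number and the mean ± SD as a bar. Serping1 lay above the highest sham rat in 4 of 5 TBI rats, while Itgam, C3ar1 and Cd55 had nearly the same mean in both groups.

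Promoter sequences from RefSeq (assembly GRCr8) were at hand for 6 of the 9 genes: C1qa, C1qb, C3, C3ar1, Cd55 and Itgam. They are shown because complement genes are well known targets of inflammatory transcription factors. The letters in front of genes called higher in TBI without adjustment can thus be read beside those of genes not called. The 250 bases before the start were searched on both strands for GAGGAAGT (PU.1), GAAANNGAA (interferon response), TTCNNNGAA (STAT) and TTGCNNAA (C/EBP), which occur in 2.041%, 8.118%, 7.667% and 9.217% of 33469 rat promoters. A match was found in 3 of the 6 genes, and the share of all promoters with any of these motifs was not counted. The windows around the matches are printed in the direction of each gene, with the match in capitals.
C1qa, STAT letters at -90 to -82, chr5:154419985-154420053, minus strand: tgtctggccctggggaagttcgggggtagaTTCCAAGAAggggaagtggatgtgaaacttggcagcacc
C3, C/EBP letters at -104 to -97, chr9:2201406-2201473, minus strand: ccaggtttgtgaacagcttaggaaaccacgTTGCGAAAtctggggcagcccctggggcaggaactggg
Itgam, STAT letters at -105 to -97, chr1:192089457-192089525, plus strand: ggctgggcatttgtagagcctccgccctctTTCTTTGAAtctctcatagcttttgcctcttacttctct
Itgam, C/EBP letters on the opposite strand at -199 to -192, chr1:192089363-192089430, plus strand: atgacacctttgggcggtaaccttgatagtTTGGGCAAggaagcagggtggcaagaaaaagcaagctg
STAT letters thus stood before C1qa, which was called higher in TBI without adjustment only, and before Itgam, which was not called. The matches describe the sequence only, and the absence of one says only that these letters are not in this window.

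C1q is built from 3 chains, whose genes C1qb, C1qc and C1qa lie next to each other in the rat genome. C1qa was measured at 52.0, 35.4, 57.7, 34.7 and 38.6 CPM in sham replicates 1 to 5 and at 55.7, 55.7, 45.8, 57.5 and 57.6 CPM in TBI replicates 1 to 5. Every TBI rat was above the sham median, and none was above sham replicate 3, the highest sham rat. The means were 43.7 CPM ± 10.5 in sham and 54.5 CPM ± 4.94 in TBI rats (SD, n = 5 each), a fitted fold of 1.24 and a log2 difference of 0.31 with a standard error of 0.132. The 95% interval was 0.03 to 0.59, and the gene was called without but not with adjustment (edgeR quasi-likelihood, Benjamini-Hochberg adjusted p = 0.589). C1qb had 36.6, 26.6, 43.9, 27.1 and 26.6 CPM in the sham rats and 37.0, 46.8, 33.0, 41.4 and 43.6 CPM in the TBI rats. Sham replicates 1 and 3 lay among the TBI rats, and the other 3 sham rats lay below all of them. The log2 difference of C1qb was 0.32 with a standard error of 0.143 and a 95% interval from 0.01 to 0.63 (edgeR quasi-likelihood adjusted p = 0.620). C1qc had 18.4, 14.6, 21.9, 20.4 and 17.7 CPM in the sham rats and 21.0, 22.8, 21.1, 18.0 and 20.4 CPM in the TBI rats. For this chain the groups were largely mixed, and the log2 difference was 0.15 with a 95% interval from -0.06 to 0.37 (edgeR quasi-likelihood adjusted p = 0.753). The intervals of all 3 chains overlap, and a difference between chains was not tested.

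Within a rat the chains kept close proportions. The ratio of C1qa to C1qb counts was 1.36 ± 0.0745 in sham and 1.36 ± 0.116 in TBI rats (SD, n = 5 each). C1qc made up 20.0% ± 3.13 of the C1q counts in sham and 18.0% ± 2.14 in TBI rats (SD, n = 5 each), and the highest shares, 24.8% and 21.3%, were those of sham replicates 4 and 5, the libraries richest in ribosomal RNA. Without these libraries, the log2 difference was 0.18 for each of C1qa, C1qb and C1qc, and none of the chains was called. With the ribosomal share as a covariate, C1qa had 0.12 and C1qb 0.088, again with no call. The calls of C1qa and C1qb were also lost when sham replicate 2, 4 or 5 or TBI replicate 1, 2, 4 or 5 alone was left out, with log2 differences of 0.24 to 0.30 for C1qa and 0.26 to 0.35 for C1qb. Because no TBI library had a ribosomal share as high as sham replicates 4 and 5, ribosomal RNA content and injury cannot be fully told apart.

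C1q was set beside 11 microglial markers with a record. Of these, 5 had an unadjusted p under 0.05, all higher in TBI (among them Aif1, Tyrobp and Trem2), against 4.89% of all records. All 11 had a positive log2 difference. Their summed level ranged from 181.7 to 277.6 CPM in sham and from 213.8 to 310.1 CPM in TBI rats. Summed C1q was 94.4 CPM ± 20.0 in sham and 115 CPM ± 9.78 in TBI rats (SD, n = 5 each). The ratio of summed C1q to the microglial sum, however, was 0.428 ± 0.0429 in sham and 0.429 ± 0.0315 in TBI rats (SD, n = 5 each). C1q and the microglial markers were therefore in nearly the same proportion in both groups, and the part of microglial number in the C1q difference was not tested. Of 10703 symbols, those whose log2 CPM was most like the mean of the 3 chains over the 10 rats were Tnfsf12 (Pearson r = 0.973), Arhgap45 (0.966), Slc12a9 (0.962), Irf8 (0.960) and Mfng (0.960). These values describe rats that share library and depth differences and carry no test.

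**Figure D2:**
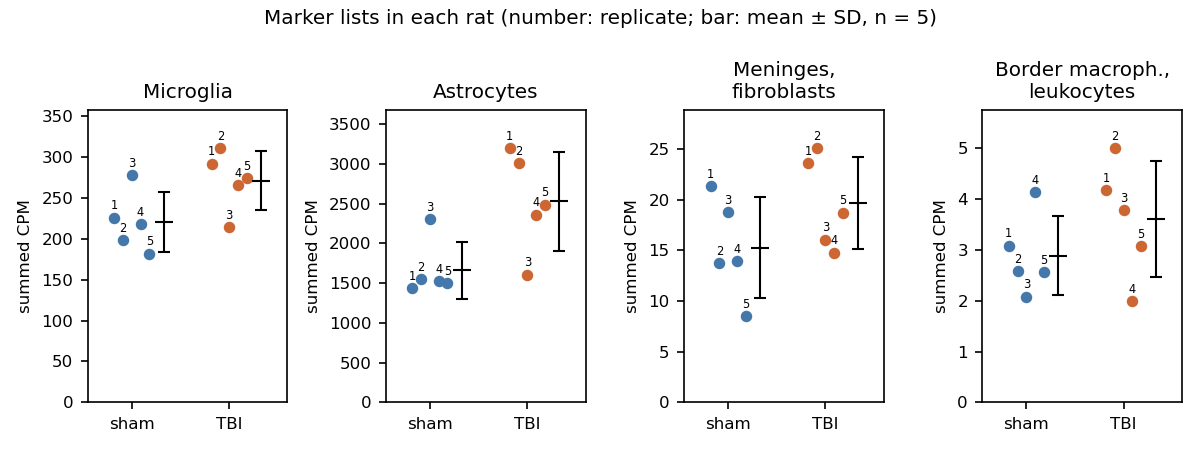
Summed CPM (vertical axes, from 0) of 4 marker lists in each sham (blue) and TBI rat (orange), with replicate numbers and the mean ± SD as a bar. Sham replicate 3 was the highest sham rat and TBI replicate 3 the lowest TBI rat in microglial and astrocyte markers, and border macrophage and leukocyte markers summed to at most 5.00 CPM.

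C1s and C1r are the proteases bound to C1q, and their genes are neighbours. C1s had 3.53, 2.91, 5.88, 4.08 and 2.50 CPM in the sham rats and 9.65, 8.49, 3.49, 5.75 and 5.90 CPM in the TBI rats. TBI replicates 1, 2 and 5 were above the highest sham rat, and TBI replicate 3 was within the sham range. The mean was 3.78 CPM ± 1.32 in sham and 6.66 CPM ± 2.44 in TBI rats (SD, n = 5 each), a fitted fold of 1.74. The log2 difference was 0.80 with a standard error of 0.297 and a 95% interval from 0.14 to 1.46 (edgeR quasi-likelihood adjusted p = 0.560). Its size was similar without the 2 sham libraries richest in ribosomal RNA (0.70) and with the ribosomal covariate (0.74), although C1s was called in neither fit, nor without sham replicate 1 or 2 or TBI replicate 2. C1r had a log2 difference of 0.19 with a 95% interval from -0.25 to 0.64 (edgeR quasi-likelihood adjusted p = 0.868). The ratio of C1r to C1s counts was 3.00 ± 0.974 in sham and 1.92 ± 0.590 in TBI rats (SD, n = 5 each), and 4 TBI rats were below the lowest sham rat at 2.21. TBI replicate 3 was the exception at 2.95, and the highest sham ratios, 4.63 and 3.00, were those of sham replicates 5 and 4. C1r was closer to C1s with the ribosomal covariate (0.44) and without these 2 libraries (0.30), in neither case called, and a difference between the proteases was not tested. Of the other starters of the cascade, the lectin pathway proteases Masp1 and Masp2 had log2 differences of -0.11 and -0.053, which turned positive under scaling by total counts (0.38 and 0.45). In all, 3 of the 8 tested initiation genes had an unadjusted p under 0.05, C1qa, C1qb and C1s, all higher in TBI (against 4.89% of all records).

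C3, on which all pathways meet, had 73.1, 52.7, 84.3, 47.8 and 45.0 CPM in the sham rats and 104.9, 93.8, 69.7, 77.9 and 61.2 CPM in the TBI rats. All TBI rats were above the sham median, and TBI replicates 1 and 2 were above the highest sham rat. The mean was 60.6 CPM ± 17.2 in sham and 81.5 CPM ± 17.8 in TBI rats (SD, n = 5 each), a fitted fold of 1.34. The log2 difference of 0.42 (standard error 0.205, 95% interval -0.03 to 0.88) did not pass the unadjusted threshold (edgeR quasi-likelihood adjusted p = 0.664). It was 0.57 and called without sham replicate 3, and 0.22 and not called without the 2 sham libraries richest in ribosomal RNA. The symbols most like C3 over the 10 rats were Prrx1 (Pearson r = 0.969), Myo18a (0.951), Axl (0.946), Trim25 (0.941) and Csf3r (0.938), again as a description.

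Of the 7 tested convertase and alternative pathway genes, edgeR's quasi-likelihood test called 0 higher and 1 lower at the unadjusted threshold. Of all records it called 4.89% higher and 3% lower. Among the 7 genes, 6 had a positive log2 difference, and the median was 0.47. Other tests on the same counts called more of them higher: DESeq2 called C2, C4a and Cfb, and edgeR's exact test C2, C4a and C3. Of all 22431 tested records, DESeq2 called 1002 higher and edgeR's exact test 1088, against 1097 in the quasi-likelihood test. With adjustment, both tests called 0 of the 30 tested complement genes. C2 and C4, which form the classical convertase, had log2 differences of 0.87 for C2 (95% interval -0.085 to 1.82), 0.79 for C4a (-0.042 to 1.62) and 0.65 for C4b (standard error 0.376). C4a and C4b are near-identical copies whose reads can be split between them in counting, so their values are uncertain. The ratio of C4a to C4b counts was 2.39 ± 0.347 in sham and 2.49 ± 0.0907 in TBI rats (SD, n = 5 each). Properdin (Cfp), which stabilizes the alternative convertase, was the exception in direction. Cfp had 3.40, 3.16, 4.45, 4.08 and 3.37 CPM in the sham rats and 2.61, 2.39, 3.46, 2.21 and 2.28 CPM in the TBI rats, and 4 of the 5 TBI rats were below the lowest sham rat. Its log2 difference was -0.51 with a standard error of 0.152 and a 95% interval from -0.83 to -0.19 (edgeR quasi-likelihood adjusted p = 0.483). Cfp was the 1 gene among the 30 tested complement genes called with the ribosomal covariate (-0.47), a share no higher than the 3.90% of all records. Under scaling by total counts, which moved the median of all records to 0.50, its log2 difference was -0.00085.

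**Figure D3:**
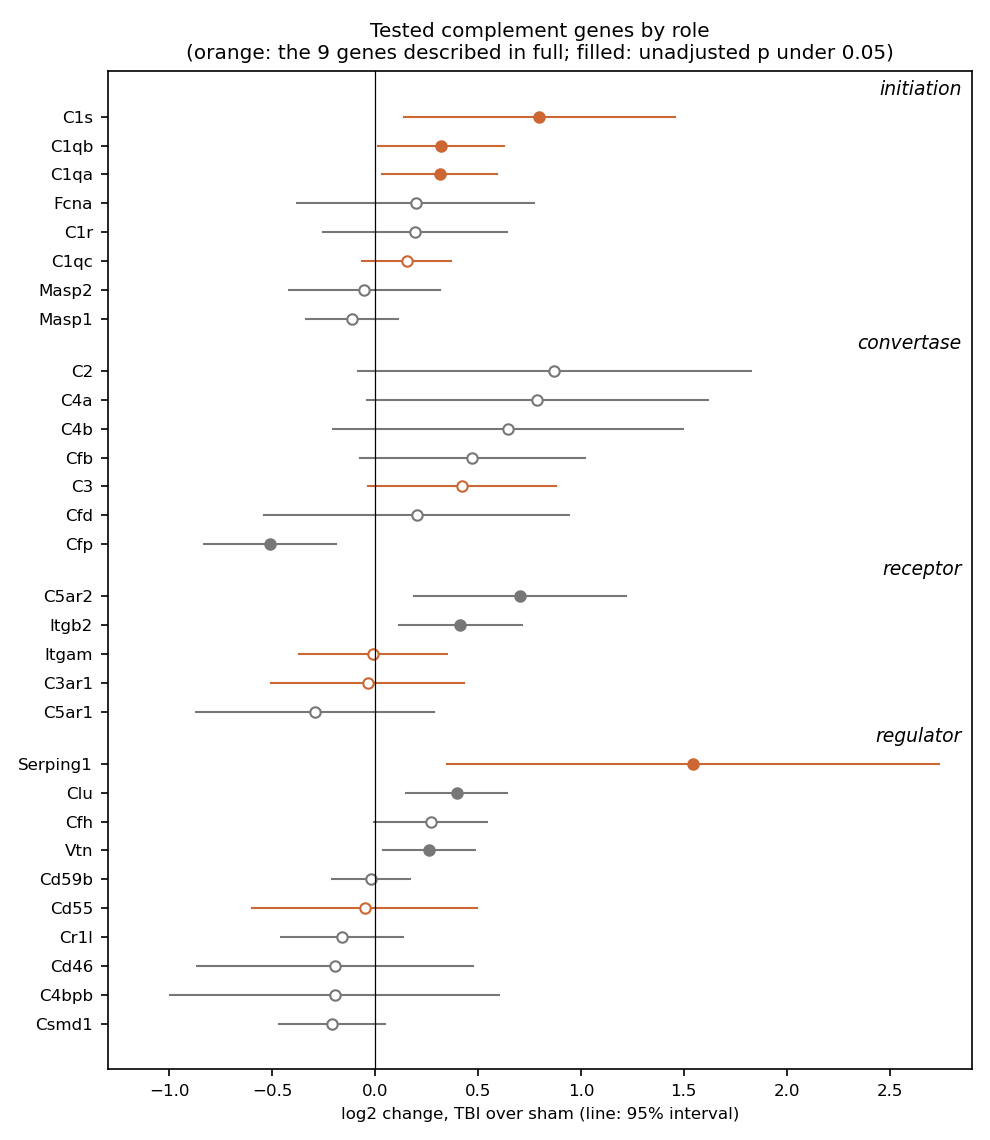
Log2 difference of TBI over sham (horizontal axis) with its 95% interval for 30 tested complement genes, ordered by role. The 9 genes described in full are orange, filled points have an unadjusted p under 0.05, and of the 9 filled points 8 lie above 0 and Cfp lies below it.

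The receptors among the 9 genes were nearly equal in both groups. Itgam, the alpha chain of CR3 and a marker of microglia and other myeloid cells, had 19.3, 16.5, 14.0, 13.1 and 11.7 CPM in the sham rats and 21.6, 15.4, 12.4, 12.0 and 13.3 CPM in the TBI rats. The means were 14.9 CPM ± 2.99 in sham and 14.9 CPM ± 3.94 in TBI rats (SD, n = 5 each). The log2 difference was -0.01 with a 95% interval from -0.37 to 0.35, so a change of either sign within this interval remains possible (edgeR quasi-likelihood adjusted p = 0.997). Its partner in CR3, Itgb2, had a log2 difference of 0.41 with a 95% interval from 0.11 to 0.71 (edgeR quasi-likelihood adjusted p = 0.507). Within a rat, the ratio of Itgb2 to Itgam counts was 0.873 ± 0.210 in sham and 1.20 ± 0.223 in TBI rats (SD, n = 5 each), and 3 TBI rats were above the highest sham rat. Itgb2 also pairs with other alpha chains, of which Itgax, the neighbour of Itgam, was listed but had no record under its symbol.

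C3ar1, the receptor for C3a, was close to the limit of what these libraries count, with 14 to 61 counts per rat. It had 1.00, 1.11, 1.43, 0.95 and 1.00 CPM in the sham rats and 0.93, 1.62, 1.11, 1.04 and 0.72 CPM in the TBI rats. The highest and the lowest rat were both TBI rats, and the log2 difference was -0.04 (95% interval -0.51 to 0.43, edgeR quasi-likelihood adjusted p = 0.985). The lowest count of 14 has an exact Poisson interval of 7.65 to 23.5, which covers counting error only. The C5a receptors, given for comparison, also had low counts, 7 to 54 per rat for C5ar1 and 10 to 81 for C5ar2. C5ar1 had a log2 difference of -0.29 (95% interval -0.87 to 0.29) and C5ar2, which binds C5a without the usual G protein coupling, 0.70 (0.19 to 1.22). C5ar1 was not called, and its sign turned under scaling by total counts (0.18) and without sham replicate 3 (0.073). In all, 2 of the 5 tested receptor genes were called, Itgb2 and C5ar2, both higher in TBI (against 4.89% of all records). Itgb2 was not called with the ribosomal covariate (0.22) or without the 2 sham libraries richest in ribosomal RNA (0.26), and C5ar2 was not called with the covariate (0.59).

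Serping1 had the largest difference of the 9 genes. It was measured at 3.93, 4.85, 12.0, 4.28 and 3.37 CPM in the sham rats and at 28.3, 19.3, 5.04, 13.0 and 19.9 CPM in the TBI rats. Every TBI rat was above the sham median and 4 were above the highest sham rat, sham replicate 3, while TBI replicate 3 was close to the other sham rats. The mean was 5.69 CPM ± 3.58 in sham and 17.1 CPM ± 8.66 in TBI rats (SD, n = 5 each), a fitted fold of 2.92. The log2 difference was 1.55 with a standard error of 0.521 and a 95% interval from 0.35 to 2.74 (edgeR quasi-likelihood adjusted p = 0.548). It was 2.05 without sham replicate 3 and 1.78 without TBI replicate 3, and Serping1 was called at the unadjusted threshold whichever of the 10 rats was left out. It was not called with the ribosomal covariate (1.26) or without the 2 sham libraries richest in ribosomal RNA (1.31).

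Serping1 was also set against its own target and against C1q in the same rat. Library size and scaling do not touch such ratios, but they can still differ with ribosomal RNA content, which was not tested. The ratio of Serping1 to C1s counts was 1.45 ± 0.413 in sham and 2.45 ± 0.734 in TBI rats (SD, n = 5 each), and that of Serping1 to C1qa counts was 0.126 ± 0.0523 in sham and 0.307 ± 0.149 in TBI rats (SD, n = 5 each). In each ratio 4 of the 5 TBI rats were above the highest sham rat, and TBI replicate 3 was within the sham range. The symbols most like Serping1 over the 10 rats were Id3 (Pearson r = 0.993), Gpnmb (0.990), Vim (0.988), Mvp (0.987) and Clu (0.984). Vim is 1 of the astrocyte markers, and the others are in none of the marker lists used here. Of the 6 astrocyte markers tested, 3 had an unadjusted p under 0.05, all higher in TBI (Gfap, Aldh1l1 and Vim), against 4.89% of all records. Aqp4 (log2 difference 0.53), Slc1a2 (0.064) and Slc1a3 (-0.00094) were not called. The sum of the 6 ranged from 1438 to 2301 CPM in sham and from 1607 to 3194 CPM in TBI rats. Gfap was its largest part in every rat, with means of 1016 CPM in sham and 1800 CPM in TBI rats. Of the 6 meningeal and fibroblast markers 3 were called higher, against 4.89% of all records. They summed to 8.50 to 21.3 CPM in sham and 14.8 to 25.1 CPM in TBI rats. Of the 5 choroid plexus markers 1 was called higher, against the same 4.89%. They summed to 6.40 to 35.7 CPM in sham and 11.7 to 35.9 CPM in TBI rats. The part of these cells in the Serping1 difference was not tested. Of the 8 border macrophage and leukocyte markers, 4 were tested and 0 called, against 7.89% of all records (edgeR quasi-likelihood test, at an unadjusted p under 0.05). The sum of the markers with a record lay between 1.99 and 5.00 CPM in all rats, with Ccr2, S100a8 and S100a9 below the filter. Within that sum Cd3e, a T cell marker named here after its values were seen, had 3, 1, 9, 2 and 11 counts in the sham rats and 38, 94, 8, 2 and 26 counts in the TBI rats (log2 difference 2.06, 95% interval -0.18 to 4.31). Its highest rats, TBI replicates 1 and 2, were also the highest in C1s and C3, and the part of T cells was not tested. Likewise 0 of the tested endothelial, dentate granule cell, CA3 and neuronal markers were called by the same test, against the same 7.89%. With so few markers per list, 0 calls do not show that these cells were unchanged.

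**Figure D4:**
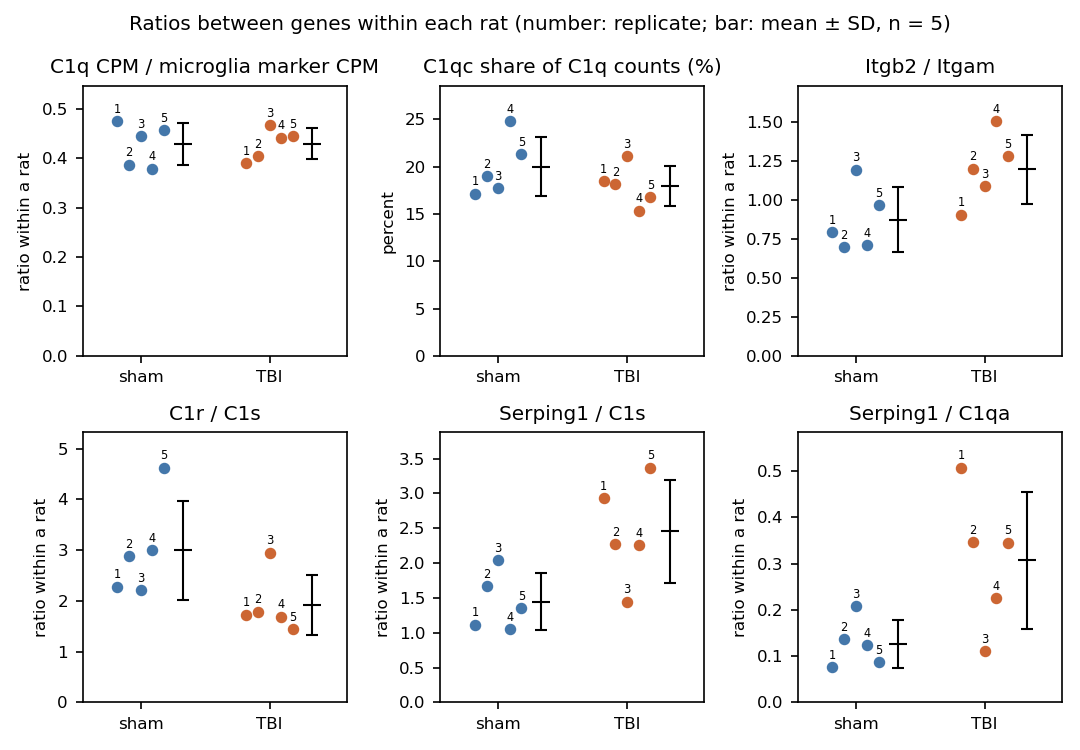
Ratios between genes within each sham (blue) and TBI rat (orange), on axes from 0, with replicate numbers and the mean ± SD as a bar. C1q over microglial markers was nearly equal in both groups (0.428 and 0.429), while Serping1 over C1s and over C1qa was above the highest sham rat in 4 of 5 TBI rats.

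Cd55, the inhibitor of the convertases on the cell surface, had 0.66, 1.22, 1.04, 0.54 and 0.81 CPM in the sham rats and 0.87, 0.69, 1.09, 1.11 and 0.52 CPM in the TBI rats. The rats of both groups covered the same range. The mean was 0.854 CPM ± 0.277 in sham and 0.854 CPM ± 0.253 in TBI rats (SD, n = 5 each), and the log2 difference was -0.05 with a 95% interval from -0.60 to 0.50 (edgeR quasi-likelihood adjusted p = 0.982). Cd55 had 8 to 37 counts per rat, and the lowest count has an exact Poisson interval of 3.45 to 15.8. At this depth a change of either sign within the 95% interval remains possible. The symbols most like Cd55 were Tanc1 (Pearson r = 0.868), Cep70 (0.837), Ddx21 (0.829), Stk35 (0.816) and Ulk3 (0.810), lower values than for C1q, Serping1 and C3, the other patterns compared.

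Of the 10 tested regulators, 3 were called, all higher in TBI (against 4.89% of all records): Serping1, Clu and Vtn. Clusterin (Clu) and vitronectin (Vtn) keep the terminal complex from inserting into membranes. Clu was 624 CPM ± 76.3 in sham and 821 CPM ± 144 in TBI rats (SD, n = 5 each), a log2 difference of 0.40 with a 95% interval from 0.15 to 0.64 (edgeR quasi-likelihood adjusted p = 0.483). Vtn had a log2 difference of 0.26 with an interval from 0.036 to 0.48. Vtn had 0.090 with the ribosomal covariate and 0.16 without the 2 sham libraries richest in ribosomal RNA, and was called in neither fit, nor without sham replicate 4 or 5 or TBI replicate 3 (0.20 to 0.24). Clu was not called with the covariate (0.29). The other surface inhibitors did not share this direction. Cd59b, which blocks the terminal complex on the cell, had a log2 difference of -0.02, and Csmd1, a large neuronal membrane protein that limits complement at synapses, -0.21 (95% interval -0.46 to 0.049). Under scaling by total counts, these became 0.50 and 0.28. The terminal genes themselves were near absent. Of the 6 listed, 4 had a record (C6, C8a, C8b and C9), 0 passed the filter, and none had more than 3 counts in any rat.

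Over the whole complement list of 51 symbols, 42 had a record and 30 were tested. Of these 30, 8 were called higher and 1 lower at an unadjusted p under 0.05 (against 7.89% of all records), and 0 passed the adjustment, the smallest adjusted value being 0.483 (edgeR, Benjamini-Hochberg). Their median log2 difference was 0.20. Without the 2 sham libraries richest in ribosomal RNA 3 of the 30 were called (against 5.60% of all records), Clu and C5ar2 higher and Cfp lower. With the ribosomal covariate Cfp alone was called, a share no higher than the 3.90% of all records. Leaving out the 9 genes described in full, 21 were tested, with 4 called higher and 1 lower. Because the genes were chosen with earlier results of these data known and many of them are expressed by the same cells, these shares are a description and not a test of the pathway. A further 12 listed genes had a record below the filter, with at most 7 counts in any rat.

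**Figure D5:**
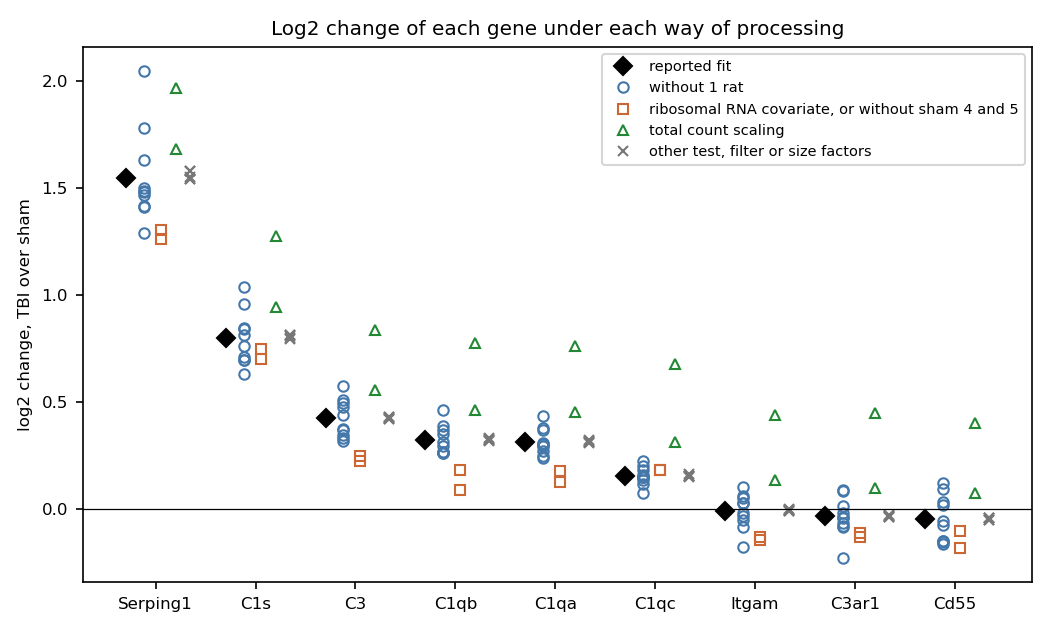
Log2 difference of TBI over sham (vertical axis) of the 9 complement genes in the reported fit (black) and in each other way of processing. Serping1 and C1s stayed above 0.5 throughout, C1qa, C1qb and C3 came closer to 0 with the ribosomal covariate or without the 2 sham libraries richest in ribosomal RNA, and Itgam, C3ar1 and Cd55 lay on both sides of 0.

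The number of called genes moved with the libraries used. It was 4 of 9 in the reported fit, 0 with the ribosomal covariate and 0 without the 2 sham libraries richest in ribosomal RNA, where 3.90% and 5.60% of all records were called in edgeR's quasi-likelihood test, and 6 without sham replicate 3, where 11.4% of all records were called. Serping1 alone was called when sham replicate 2 or TBI replicate 2 was left out. The sign of the difference was positive for C1qa, C1qb, C1qc, C1s, C3 and Serping1 in all 19 alternatives run.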

How the data were processed

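Poly-A RNA of 10 rats was read as single reads of 36 bases. Per the labels and methods, the authors aligned reads with BWA to rn4 and deposited raw read counts per RefSeq RNA record, not normalized and not pooled, where the methods name Ensembl transcripts. Isoforms and near-identical copies can share reads, and strand use in counting is not given in the sources used here. The 2 of 32043 rows that are no RNA record, a blank name and the unmapped reads (12.8% to 26.1% of reads), stayed out. Names came from RefSeq (GRCr8) for 54.2% of records.

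Records with a total of at least 44 counts (30th percentile) were kept, 22431 in all, and tested with edgeR 4.0.16 (quasi-likelihood, robust, TMM) in R 4.3.3 with Benjamini-Hochberg adjustment over all of them, after a check on simulated data. Standard errors were derived from the F statistic. Likeness used log2 CPM with a prior count of 2 and genes of at least 1 CPM. Named were the 9 genes, listed complement genes with p under 0.05 and the 3 most abundant others per role that were tested, and the 5 genes most alike. Members and lists were chosen with earlier results of these data known. Alternatives were RLE and total count scaling, no filter, DESeq2 1.42.0, edgeR's exact test, a ribosomal covariate, summed records and left-out libraries. Replicates are separate rats, whose numbers follow sample order.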

Additional observations from a re-analysis of the deposited data

Results flagged for a closer look

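Among 48 groups of 5 rats, formed by the CPM of each named complement gene and by the ribosomal share in sham and in TBI rats, 4 held 1 rat far from the others by Dixon's criterion, which chance gives in about 1 of 20 groups. TBI replicate 3 was the lowest TBI rat for C1qa at 45.8 CPM (55.7 to 57.6 CPM in the others) and for C5ar2 at 0.939 CPM (1.89 to 2.15 CPM in the others). Sham replicate 3 was the highest sham rat for Serping1 at 12.0 CPM (3.37 to 4.85 CPM in the others). TBI replicate 4 was the lowest TBI rat for Vtn at 7.05 CPM (8.33 to 8.70 CPM in the others).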

How the results depend on the processing

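The count of the 9 genes with an unadjusted p under 0.05 was 0 with the ribosomal covariate and 0 without the 2 sham libraries richest in ribosomal RNA, and from 1 to 6 when 1 rat was left out. Of the 30 listed genes it was 16 with total count scaling, 1 with the covariate, 3 without these libraries, and from 6 to 15 without 1 rat. Of all records, 7.89% were called in the reported fit, 16.9% with total count scaling, 3.90% with the covariate, 5.60% without these libraries, and 5.18% (without sham replicate 2) to 11.4% (without sham replicate 3) without 1 rat. The group difference in ribosomal share, -19.0 percentage points, was -5.64 without them. Over 23 named genes and 19 alternatives, 345 of 437 log2 values kept direction and call, 35 lost the call, 22 gained it and 35 changed sign. Signs turned with total count scaling, which moved the median of all records to 0.50, for Cd55 (0.40), C3ar1 (0.45), Itgam (0.44), C5ar1 (0.18), Cd59b (0.50), Csmd1 (0.28), Masp1 (0.38) and Masp2 (0.45). With total counts outside ribosomal RNA, chosen after seeing the data (median 0.14, 96.6% of called records higher against 62.0% in the reported fit), they turned for Cd55 (0.073), C3ar1 (0.10), Itgam (0.14), Cd59b (0.14), Masp1 (0.038) and Masp2 (0.087). The covariate gave 0.018 for Cd59b and 0.021 for Masp2, and leaving out the 2 libraries gave 0.026 for Cd59b. Without 1 rat, log2 values ranged from -0.16 to 0.12 for Cd55, -0.23 to 0.089 for C3ar1, -0.18 to 0.10 for Itgam, -0.44 to 0.073 for C5ar1, -0.085 to 0.043 for Cd59b and -0.18 to 0.060 for Masp2. Beyond the construction of these alternatives, the cause was not tested. No paired analysis was possible because the labels number the rats 1 to 10 without pairs. Cd55 and C3ar1 were limited by counts as low as 8 and 14.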
